A study of Mus musculus with 12 samples.

Results

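Axon guidance ligands and receptors were followed here through a map of small RNAs and the transcripts they were ligated to in adult mouse forebrain. The genes were taken by symbol from 4 systems: semaphorins with their plexin and neuropilin receptors, ephrins with Eph receptors, Slits with Robo receptors, and netrins and netrin-G proteins with Dcc and Unc5 receptors. Of 71 such genes, 61 carried at least 1 peak, and they held 2343 of 250567 peaks over all lists. The 10 genes with no peak in any list were Efna4, Epha1, Epha2, Ntn3, Ntn5, Robo3, Robo4, Sema3b, Sema3f and Sema4g. Genes entered by symbol, not by a measured value, but the families were picked with earlier results of these data known.

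In the assay, Argonaute 2 (Ago2), the protein that holds a microRNA (miRNA) on its target, is cross-linked and precipitated, and the small RNA is ligated to the RNA beside it. A chimeric read then names both partners, and a peak is a place where such reads of 1 small RNA pile up on a transcript. The 12 libraries came from forebrain of C57BL/6 mice matched for sex and age. Anti-Ago2 was used in 7 of them, deposited as a list for replicates 1 to 4 (reps 1-4) and a list for replicates 5 to 7 (reps 5-7). Anti-myc was used in 3 libraries to precipitate tagged Ago2 from excitatory neurons, where a ROSA26 CAG-GFP/Eif2c2 allele is switched on by the Camk2a promoter's tamoxifen-inducible Cre. Control immunoglobulin G (IgG) was used in 2. Tamoxifen was given at 2 mg daily for 5 days, tissue was taken 14 to 21 days later at 10 to 12 weeks of age, and the protocol states 3 rounds of ultraviolet light. One treatment text covers all samples in the labels, and it does not say whether mice used for anti-Ago2 or IgG carried the tagged allele too. The excitatory list differs from the others in antibody and in the precipitated protein as well as in cell type, and these cannot be told apart.

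Axon guidance cues steer growing axons by attraction or repulsion at the growth cone. Semaphorins signal through plexins, with neuropilins as co-receptors for the secreted class 3 members. Ephrins are membrane-bound ligands of Eph receptor tyrosine kinases, and signal in both directions between touching cells. Slits are secreted repellents read by Robo receptors, and netrins attract through Dcc and repel through Unc5 receptors. In the adult forebrain many of these proteins remain at synapses, where they take part in spine and circuit remodelling. MiRNAs guide Ago2 mainly through the seed, bases 2 to 8 of the mature sequence, and the strongest repression is known from sites in 3' UTRs.

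The small RNAs that recur on these genes are shown first, since the results below turn on which seeds are shared. Sequences are mature mouse miRNAs from RefSeq (GRCm38.p6), 5′ to 3′, with the seed in capitals. The let-7, miR-29, miR-30 and miR-26 members each share a seed within their family and differ in a few other bases, so reads of 1 family at 1 place are listed by the authors under several names.
miR-128-3p: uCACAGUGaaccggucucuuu
miR-9-5p: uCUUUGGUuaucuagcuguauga
let-7c-5p: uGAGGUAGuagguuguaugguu
let-7f-5p: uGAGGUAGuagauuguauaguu
let-7a-5p: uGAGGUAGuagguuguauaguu
miR-26a-5p: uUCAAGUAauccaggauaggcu
miR-26b-5p: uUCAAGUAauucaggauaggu
miR-29a-3p: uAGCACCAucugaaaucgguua
miR-29b-3p: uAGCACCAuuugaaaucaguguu
miR-30c-5p: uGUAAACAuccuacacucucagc
miR-30e-5p: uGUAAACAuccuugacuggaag
miR-125b-5p: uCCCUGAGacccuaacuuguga
miR-138-5p: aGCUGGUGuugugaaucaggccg
miR-218-5p: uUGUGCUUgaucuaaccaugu
miR-137-3p: uUAUUGCUuaagaauacgcguag
miR-382-5p: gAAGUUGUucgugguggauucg
MiR-124-3p, the most frequent small RNA on these genes, is named without its sequence.

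The lists differ greatly in size, and this limits what each can show. Reps 1-4 held 246180 peaks, reps 5-7 held 3611, the excitatory list 766 and IgG 10. Each list was called over pooled libraries and is a single observation with no spread between replicates, and depth is known only as the protocol's 61 to 138 M reads per sample. The 95% Wilson intervals given below therefore cover counting error alone, and they treat peaks as independent, which stacked peaks are not. Markers listed for 7 cell types were all present among reps 1-4 CDS and UTR peaks. Among excitatory peaks, 1 of 6 excitatory neuron markers was present with 13 peaks, 1 of 5 oligodendrocyte markers with 4 peaks, and no astrocyte, inhibitory neuron, microglia or vascular marker was. In bulk tissue, fewer cells of a type and less RNA per cell cannot be told apart, and a peak count also moves with transcript abundance and length, whose part in these counts was not tested.

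Axon guidance genes held 2325 of the 246180 reps 1-4 peaks, or 0.944% (0.907 to 0.983). Their share was higher among intron peaks, 1601 of 117113 (1.37%, 1.30 to 1.44), than among peaks in coding sequence (CDS) and UTRs, 724 of 103963 (0.696%, 0.648 to 0.749). In reps 5-7 they held 15 of 2383 CDS and UTR peaks (0.629%, 0.382 to 1.04) and 0 of 218 intron peaks, which allows a share of up to 1.38%. In the excitatory list they held 3 of 582 CDS and UTR peaks (0.515%, 0.175 to 1.504) and 0 of 31 intron peaks, and none of the 10 IgG peaks lay on them. The CDS and UTR shares of the 3 lists had overlapping intervals.

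Among the 724 CDS and UTR peaks of reps 1-4, 392 lay in 3' UTRs, 317 in CDS and 15 in 5' UTRs. The 3' UTR share was 54.1% (50.5 to 57.7), against 44.2% over all genes. It was 62.6% for ephrins and Ephs and 56.6% for semaphorins, plexins and neuropilins. In the netrin system it was 43.5% (33.5 to 54.1), and for Slits and Robos 31.1% (21.7 to 42.3). All 61 genes had at least 1 CDS or UTR peak, with a median of 6 per gene against 5 over the 9672 genes that had one. Plxna2, Epha4, Sema6d and Robo2 led, with 199 peaks between them (27.5%), while 10 genes had fewer than 3. Receptors held 485 of these peaks on 30 genes and ligands 232 on 29, with 7 more on the 2 netrin-G genes. Sema6d and Sema7a were the ligands among the first 6 genes, and the other 4 were receptors.

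**Figure D1:**
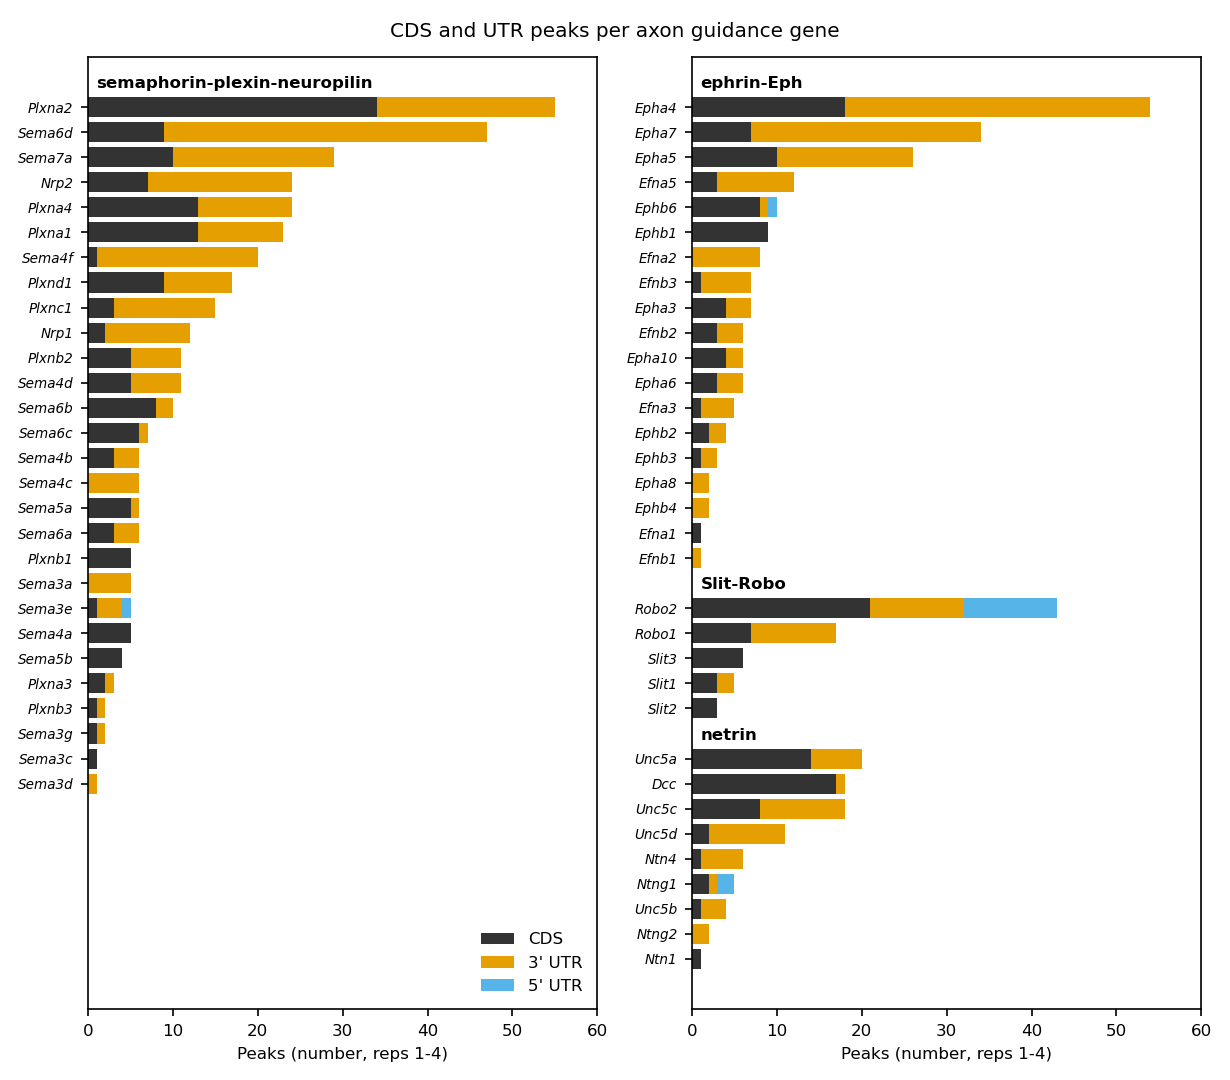
Each bar is 1 of the 61 axon guidance genes and its length is the number of reps 1-4 peaks, split into CDS, 3' UTR and 5' UTR and grouped by system. Plxna2 reached 55 and Epha4 54, Robo2 was the gene with the most 5' UTR peaks (11), and netrin ligand Ntn1 had 1.

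The semaphorin, plexin and neuropilin genes held 362 CDS and UTR peaks, the most of the 4 systems. Plxna2, a plexin that serves as a receptor for class 3 and class 6 semaphorins, had 55 (34 in CDS, 21 in 3' UTR), which placed it at rank 238 over all genes. Its strongest peak was also the strongest of any axon guidance gene. This miR-128-3p peak in CDS (chr1:194807537-194807557, + strand, mm10) had a score of 230 in reps 1-4, 9 in reps 5-7 and 4 in the excitatory list. The score is a whole number deposited by the authors for each peak and is used here only to rank peaks within a list. MiR-124-3p was called 12 times on Plxna2, with 3 CDS peaks of scores 72, 47 and 46 and a 3' UTR peak of 48. The CDS peak of 72 (chr1:194644822-194644835) was found in reps 5-7 with a score of 5.

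Sema6d, a transmembrane semaphorin that binds class A plexins, had 47 CDS and UTR peaks, 38 of them in the 3' UTR. Its miR-26a-5p peak (chr2:124665614-124665622, + strand) scored 168 in reps 1-4 and 9 in reps 5-7, and no excitatory peak lay there. A miR-23b-3p peak (chr2:124665667-124665681) scored 38 and 4 in these 2 lists, and a miR-124-3p peak (chr2:124665698-124665710) 75 and 8. These 3 peaks, of 3 different seeds, lay within 97 bases, and all 3 were seen in both anti-Ago2 lists. A 4th place further along the same UTR (chr2:124666039-124666085) carried 5 miR-30 names and no other family.

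The other semaphorins had fewer peaks and different leading partners. Sema7a, a semaphorin with a lipid anchor in place of a membrane-spanning segment, had 29 peaks, of which miR-128-3p (score 10) and miR-26a-5p (14) recurred in reps 5-7 with scores of 4 and 3. Its 3' UTR held 8 peaks of 6 families within 70 bases (chr9:57962615-57962684). Sema4f had 20 peaks, 19 in the 3' UTR and 9 of miR-124-3p, the highest at 33. The Sema4f peak found again was another of miR-124-3p, with a score of 27 in reps 1-4 and 3 in reps 5-7. Sema4a had only 5 peaks, but its miR-124-3p CDS peak (chr3:88452036-88452052, - strand) was the 3rd highest of all axon guidance peaks, at 79, with 4 in reps 5-7. The secreted class 3 semaphorins stood at the other end, with 14 CDS and UTR peaks over 5 genes and no peak on Sema3b or Sema3f.

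Among the other plexins, Plxna4 had 24 CDS and UTR peaks, Plxna1 23, Plxnd1 (a receptor of Sema3e) 17, Plxnc1 (a receptor of Sema7a) 15 and Plxnb2 11. The highest Plxnb2 peak was of miR-124-3p in the 3' UTR (chr15:89155999-89156010, - strand), with 68 in reps 1-4 and 3 in reps 5-7. Plxna4 and Plxna1 each carried a stack of let-7 names in CDS. The Plxna4 stack had 7 let-7 names within 22 bases (chr6:32517445-32517466), the highest of them let-7f-5p at 10. Of the neuropilins, Nrp2 had 24 peaks, 9 of miR-124-3p, with miR-128-3p highest at 17. Nrp1 had 12 peaks, led by miR-124-3p at 42 and miR-9-5p at 34, and a further miR-124-3p peak (chr8:128505339-128505342) with a score of 30 was found in reps 5-7 with 5.

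The ephrin and Eph genes held 203 CDS and UTR peaks, of which 163 lay on receptors. Epha4, an Eph receptor that binds ephrins of both the A and B classes, had 54, with 36 in 3' UTR. One stretch of 71 bases in its 3' UTR (chr1:77373654-77373724, - strand) carried 19 peaks of 5 families, more than any other axon guidance site. There 8 were let-7 names, led by let-7f-5p at 59, let-7a-5p at 31 and let-7g-5p at 27, and miR-93-5p reached 12. The let-7f-5p peak (chr1:77373689-77373704) recurred with 5 in reps 5-7 and 4 in the excitatory list. Epha7 had 34 peaks, with miR-137-3p highest in its 3' UTR (chr4:28966483-28966502, score 49), while its miR-26a-5p peak of 32 was the one found in reps 5-7, with 3. Epha5 had 26 peaks, all of score 9 or lower, and 9 were of the miR-29 family and 7 of miR-30.

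Ephb6, an Eph receptor without kinase activity, had 10 CDS and UTR peaks, of which 7 were of miR-124-3p, and 8 of the 10 lay in CDS. Its miR-128-3p CDS peak (chr6:41616792-41616807, + strand) scored 73 in reps 1-4, 4 in reps 5-7 and 3 in the excitatory list. Its miR-124-3p CDS peak of 53 was the highest axon guidance peak that was found in no other list. Among ephrins, Efna5 led with 12 peaks, and miR-29b-3p at 48 and miR-29a-3p at 46 lay at the same place in its 3' UTR (chr17:62606460-62606474 for miR-29b-3p, - strand). Efna2 had 8, all in its 3' UTR, Efnb3 had 7 and Efnb2 6, and Efna1 and Efnb1 had 1 each.

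The Slit and Robo genes held 74 CDS and UTR peaks, and 60 of them were on Robo1 and Robo2. Robo2 had 43 (21 in CDS, 11 in 3' UTR and 11 in 5' UTR), which is 11 of the 15 axon guidance 5' UTR peaks. Its highest peaks were in the 3' UTR, with miR-382-5p at 47, miR-124-3p at 45 and 37, and miR-218-5p at 37 (chr16:73895354-73895372, - strand). Its 5' UTR held a stack of 8 peaks, 6 of them let-7 names, with none above 8. Robo1 had 17 peaks, led by miR-29b-3p at 26 and miR-29a-3p at 25 at 1 place in the 3' UTR. No Robo peak was found in reps 5-7 or the excitatory list. The Slits, their ligands, had few: Slit3 had 6, Slit1 5 and Slit2 3, with miR-124-3p highest on each, at 10, 14 and 8.

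MiR-218-5p is encoded in introns of Slit2 and Slit3, and Robo1 and Robo2 are its known targets. Among 866 miR-218-5p CDS and UTR peaks of reps 1-4, with a median score of 5, the Robo2 peak ranked 19 and the Robo1 peak (chr16:73045340-73045358, score 12) ranked 101. Axon guidance genes held 20 of 1935 miR-218-5p peaks, 6 of them in CDS or UTR. Beside Robo1 and Robo2 these were on Epha7 (scores 9 and 8), Epha5 (9) and Sema4f (3). No peak lay within 100 bases of either hairpin. Other pairs looked up from earlier knowledge gave mixed values. Nrp1 had 5 miR-124-3p CDS and UTR peaks, the highest at 42 and 1 of them found in reps 5-7. Sema3a had miR-30c-5p at 8 and miR-30b-5p at 4, and 1 miR-124-3p peak at 4. No miR-210-3p peak lay on Efna3 and no miR-27a-3p or miR-27b-3p peak on Sema6a.

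The netrin system held 85 CDS and UTR peaks, and 71 were on receptors. Unc5a had 20, with miR-124-3p peaks of 13, 13 and 12 and 8 let-7 peaks, and Unc5c had 18, with miR-26a-5p in CDS highest at 24. Dcc, the attractive netrin receptor, had 18, of which 17 lay in CDS and 12 were of the let-7 family, the highest let-7c-5p at 19. Unc5d had 11, led by a miR-124-3p 3' UTR peak at 35. Ntn1, the best studied ligand, had 1 peak (miR-143-3p, score 4) and Ntn4 had 6. None of these genes had a peak in reps 5-7 or in the excitatory list.

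In all, 86 small RNAs had a CDS or UTR peak on an axon guidance gene, 31 of them on 1 gene only and 16 on 10 genes or more. MiR-124-3p, a miRNA abundant in neurons, had 170 (23.5%, 20.5 to 26.7) on 52 of the 61 genes, against 21.1% over all CDS and UTR peaks. It gave the highest-scoring peak on 28 genes and 8 of the 15 highest peaks, counts given here without an all-gene value. Over all genes, it was on 6819 of the 9672 with a CDS or UTR peak. MiR-9-5p, a miRNA of neural progenitors and neurons, came next by single name with 47 (6.49%, 4.92 to 8.53) on 24 genes, below its 10.0% over all peaks. MiR-128-3p, another neuronal miRNA, had 42 on 27 genes, miR-26a-5p 33, let-7c-5p 25, let-7f-5p and miR-125b-5p 23 each, miR-29a-3p and miR-29b-3p 21 each and miR-138-5p 20. By seed, let-7 had 126 (17.4%, 14.8 to 20.3; 14.1% over all peaks), miR-29 had 47 (6.49%, 4.92 to 8.53; 9.32%) and miR-30 had 45 (6.22%, 4.68 to 8.22; 3.44%).

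**Figure D2:**
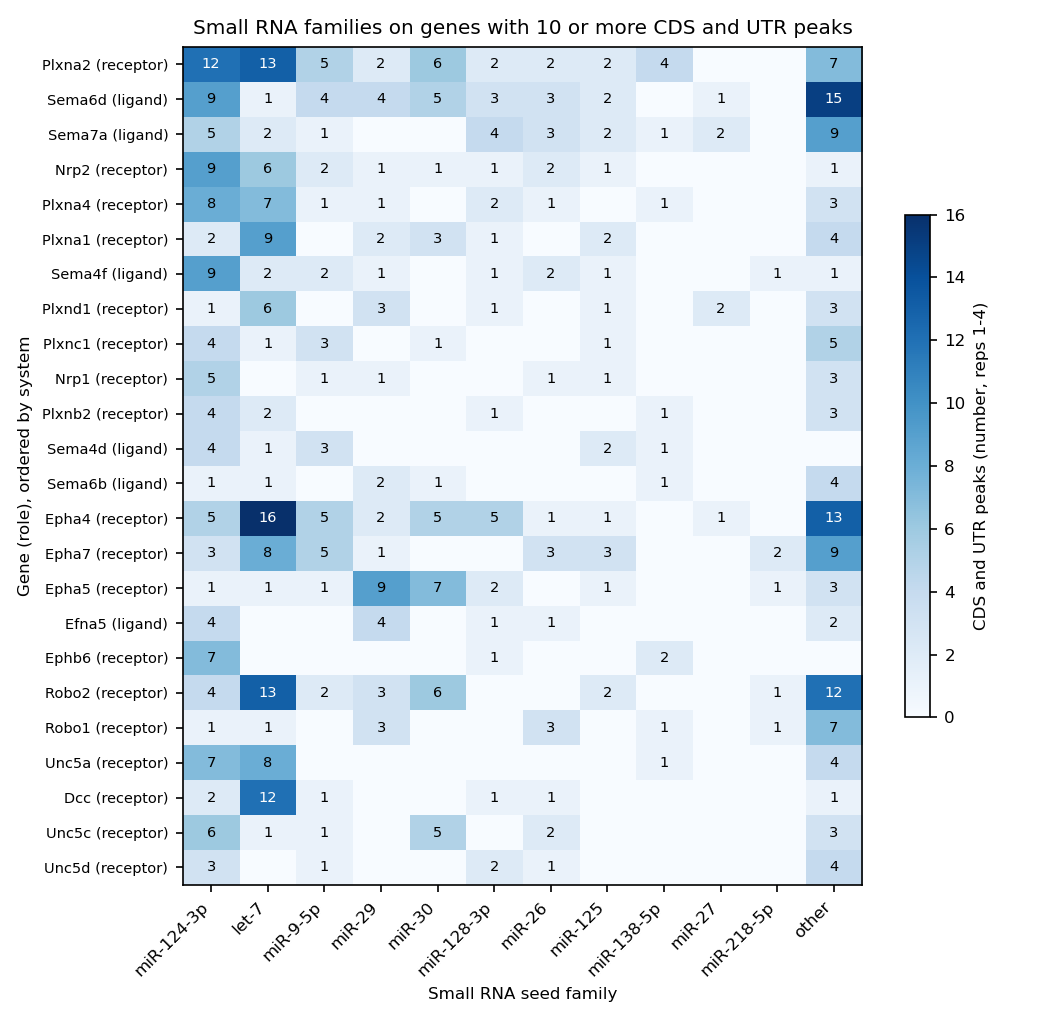
Rows are the 24 axon guidance genes with 10 or more reps 1-4 CDS and UTR peaks, ordered by system, columns are small RNA seed families, and each cell gives the number of peaks, also shown as colour. Let-7 reached 16 on Epha4, 13 on Plxna2 and Robo2 and 12 on Dcc, while Efna5, Nrp1, Unc5d and Ephb6 had none.

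Let-7 made up a larger share of the peaks on receptors than on ligands. On receptors it made up 109 of 485 CDS and UTR peaks (22.5%, 18.98 to 26.4) and was present on 18 of 30 genes. On ligands it made up 17 of 232 (7.33%, 4.63 to 11.4), on 9 of 29 genes. Of the 126 let-7 peaks, 63 lay on the 5 genes with the most, Epha4, Plxna2, Robo2, Dcc and Plxna1, all receptors. The difference between receptors and ligands was 15.1 percentage points (9.77 to 19.9). When each gene was left out in turn, but never several together, it ranged from 13.4 without Dcc to 17.1 without Sema6c. Because the let-7 names stack, counting each place once brought it down to 8.27 points, with 45 of 309 receptor sites (14.6%, 11.1 to 18.9) and 10 of 159 ligand sites (6.29%, 3.45 to 11.2), whose intervals overlapped slightly. The all-gene values lay between, at 14.1% of peaks and 9.46% of sites. This split was looked for after the values had been seen, so it is a description without a test.

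**Figure D3:**
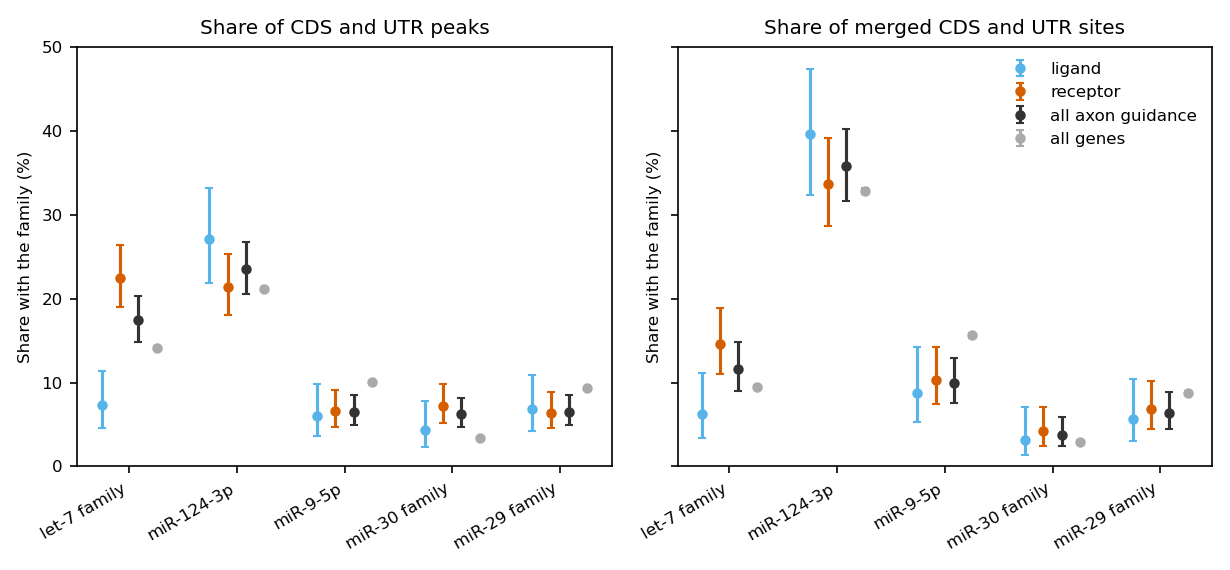
Points are the share (%) of reps 1-4 CDS and UTR peaks (left) or merged sites (right) with a small RNA family, for ligands, receptors, all axon guidance genes and all genes, and bars are 95% Wilson intervals. Let-7 stood at 22.5% on receptors and 7.33% on ligands by peaks, and at 14.6% and 6.29% by sites.

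The 724 peaks merged to 474 sites, of which 101 (21.3%, 17.9 to 25.2) held 2 or more peaks, against 24.4% over all genes. Sites with 5 or more peaks numbered 20 (4.22%, 2.75 to 6.43), near the 4.02% over all genes. Of these 20, 14 were on receptors and 6 on ligands, which held 309 and 159 of the 474 sites. Among the 20, 12 held 3 or more let-7 peaks. MiR-30 was on 18 sites (3.797%, 2.42 to 5.92) against 2.89% over all genes, an interval that includes the all-gene value, which it did not by peaks. MiR-9-5p was on 47 sites (9.92%, 7.54 to 12.9), again below the 15.6% of all genes. MiR-29 was on 30 sites (6.33%, 4.47 to 8.89; 8.74% over all genes) and let-7 on 55 (11.6%, 9.02 to 14.8; 9.46%). Both intervals include the all-gene value by sites, although not by peaks.

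All 15 axon guidance peaks of reps 5-7, on 10 genes, were found again in reps 1-4 (same small RNA name, overlap of 1 base or more), against 91.6% of all reps 5-7 CDS and UTR peaks. The interval of this share of 100% reached down to 79.6%, and with a reciprocal overlap of 50% it was 60%. The 15 comprised 6 peaks of miR-124-3p, 4 of miR-26a-5p, 3 of miR-128-3p and 1 each of let-7f-5p and miR-23b-3p. All 3 excitatory peaks, on Plxna2, Ephb6 and Epha4, were in both anti-Ago2 lists. Reps 1-4 peaks that were found in reps 5-7 had a median score of 59, with a lowest of 10, and the others had a median of 5.

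**Figure D4:**
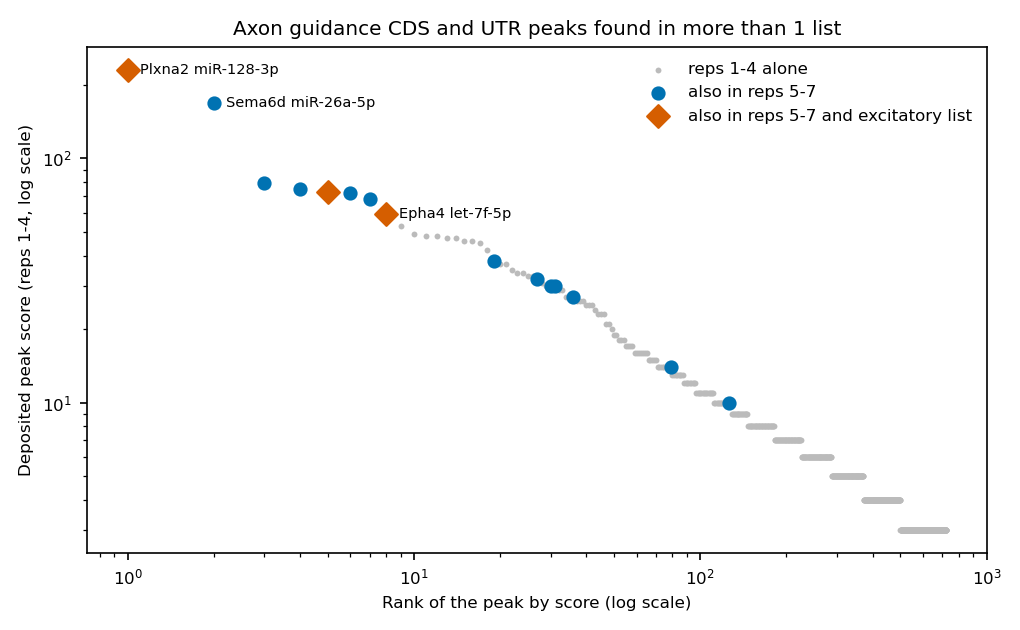
The 724 axon guidance CDS and UTR peaks of reps 1-4 are ordered by rank (x, log scale) and deposited score (y, log scale), with colour and shape giving the other lists that held the same small RNA at an overlapping place. The 8 highest peaks were all found in reps 5-7, and below a score of 10 none was.

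Recovery was higher at higher scores, on axon guidance genes and over all genes. Of peaks with a score of 40 or more, 8 of 18 (44.4%, 24.6 to 66.3) were in reps 5-7, against 41.8% over all genes. From 20 to 39 it was 5 of 31 (16.1%, 7.09 to 32.6) against 9.89%, and from 10 to 19 it was 2 of 79 (2.53%) against 2.51%. Of 596 peaks with a score of 3 to 9, 0 were found, against 0.256% over all genes.

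No axon guidance gene was called different in its share of CDS and UTR peaks between lists. The two-sided Fisher's exact test per gene, with Benjamini-Hochberg adjustment over all genes with at least 10 peaks in both lists together, called 0 of 3127 genes between reps 5-7 and reps 1-4 (0%), with 128 at an unadjusted p under 0.05. It included 24 axon guidance genes, and 0 of these were called or passed the unadjusted threshold. Between the excitatory list and reps 1-4 it called 4 of 3099 genes (0.129%), Arc, Camk2a, Ddn and Map2, and 0 of 24 axon guidance genes. Between the excitatory list and reps 5-7 it called 0 of 26 genes (0%), with 6 at an unadjusted p under 0.05, and no axon guidance gene had enough peaks. Plxna2, with 3 peaks in reps 5-7 and 55 in reps 1-4, had an adjusted p of 1. These tests compare lists, not conditions, and with 15 and 3 peaks the smaller lists could not show a modest difference on any of these genes. Nor could they show a full absence from CDS and UTRs. Robo2, with 43 peaks in reps 1-4 and 0 in both smaller lists, did not pass the unadjusted threshold. The lack of calls therefore does not show that the shares were equal.

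Introns held 1601 of the 2325 reps 1-4 peaks, or 68.9% (66.9 to 70.7), against 53.0% of all peaks in introns, CDS and UTRs. Most came from a few long genes. Unc5d had 297, Dcc 198, Unc5c 184, Slit3 164 and Efna5 134, which is 61.0% of the total, followed by Robo2 with 105, Plxna4 and Epha6 with 67 each, Epha5 with 55 and Robo1 with 54. The share differed by system, at 89.4% in the netrin system, 82.5% for Slits and Robos, 65.2% for ephrins and Ephs and 29.6% for semaphorins, plexins and neuropilins. Intron peaks scored low, with a median of 3 that was also the median of all intron peaks, and 6 of the 1601 reached 20. The highest was a miR-124-3p peak on Epha6 at 49. MiR-124-3p made up 41.2% (38.8 to 43.6) of the intron peaks, against 37.7% over all intron peaks.

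Intron peak number followed gene span. Across the 41 axon guidance genes with an intron peak the Spearman rank correlation was 0.785, and across all 5107 genes with one it was 0.623. Both are given as descriptions, and all genes share the same libraries. Per kb of gene, Unc5d had 0.518 intron peaks, Unc5c 0.498 and Efna5 0.481. The 785 genes of 200 kb or more with an intron peak had a median of 0.0823, and Unc5d lay at percentile 90.6 of these. Long genes with no intron peak are not counted in this background. Among genes with an intron peak, the axon guidance genes were not denser as a group: the 19 of 200 kb or more had a median of 0.0675. With genes of any span, the medians were 0.0558 for axon guidance genes and 0.0677 for all genes with an intron peak. Long genes were not all alike: Slit3 had 0.279, Dcc 0.180, Robo2 0.0675, Robo1 0.0529, Slit2 0.0459 and Sema3a 0.00418. No intron peak on an axon guidance gene was in reps 5-7 or in the excitatory list.

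**Figure D5:**
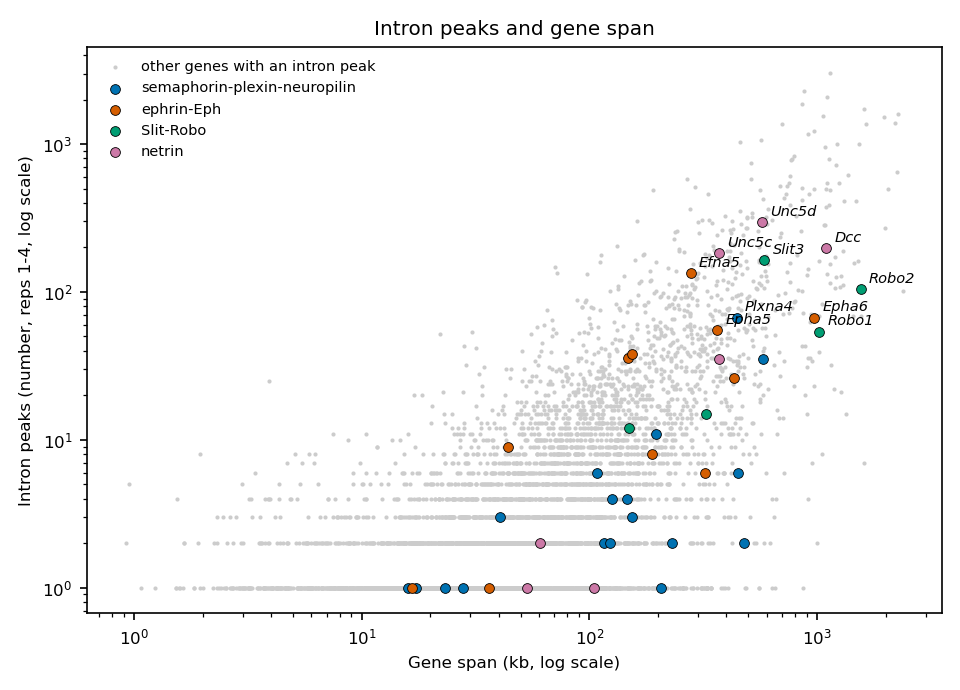
Each point is a gene with a reps 1-4 intron peak, with gene span in kb (x, log scale) and number of intron peaks (y, log scale), and axon guidance genes are coloured by system over all other genes in grey. Unc5d had 297 peaks over 573 kb and Robo2 105 over 1555 kb.

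Beyond the ligands and receptors, 64 other genes of axon guidance were listed, from adhesion partners to the signalling proteins downstream. Of these, 61 had a reps 1-4 CDS or UTR peak (1134 peaks, median 14), 19 had a peak in reps 5-7 and 5 had one in the excitatory list. The median was 5 over all 9672 genes with a reps 1-4 CDS or UTR peak. Of 11356 genes with a peak in any list, 1465 had one in reps 5-7 and 461 in the excitatory list. In each comparison with reps 1-4, 38 of the 64 pathway genes had enough peaks for the Fisher's exact test, and 0 were called. An unadjusted p under 0.05 was seen for 2 with reps 5-7 and 0 with the excitatory list. Over all genes, 0 of 3127 were called with reps 5-7 and 4 of 3099 with the excitatory list. There, 128 and 58 genes had an unadjusted p under 0.05. None of the 64 pathway genes could be tested between the excitatory list and reps 5-7. Kalrn led with 112 peaks and a miR-30a-5p CDS peak of 172. Dpysl2, a mediator of semaphorin-induced growth cone collapse, had 83, and Srgap3, a GTPase-activating protein that binds Robo, had 65. Chn1, a Rac GTPase-activating protein that acts downstream of Epha4, had 61. Gsk3b, a kinase that acts on the growth cone cytoskeleton, had 60 and the most reps 5-7 peaks of the list, 6. The 5 with an excitatory peak were Nrcam, Crmp1, Kalrn, Chn1 and Rock2. Draxin, Vasp and Vav2 had no CDS or UTR peak.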

How the data were processed

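Chimeric reads were measured in 12 libraries in 4 groups, and the authors deposited 1 peak list with annotation per group. Per the calling summaries, the authors pooled a group's libraries before calling, used mm10 and miRBase mouse names, required 3 reads and 2 libraries for a peak, and called small RNAs of a family separately. Neither caller nor aligner is named in these sources. The score deposited for each peak is the authors' whole number, 3 or higher, with no stated definition and no stated scaling to depth, so scores were ranked only within a list. Feature and gene are those of the deposited annotation, 1 per peak.

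Genes were chosen by symbol. These members, the gene lists and the tests were chosen with earlier results of these data known. CDS and UTR peaks per gene were compared between lists with two-sided Fisher's exact tests (scipy 1.17.1), adjusted over all genes with 10 or more peaks, threshold 0.05. The procedure was also run on simulated lists in which some of the genes with the most peaks were raised. No gene was set to fall there, so the simulation cannot show how well an absence would be called. Peaks of 2 lists matched when the small RNA name agreed and they overlapped by 1 base or more on 1 strand. Overlapping peaks of a gene on 1 strand were merged to sites. Names absent from the RefSeq table took the seed of listed names with the same number and arm. Shares carry Wilson 95% intervals, and a count of 0 allows 3 peaks. Intervals cover counting error only, since each list is a single pooled observation. No molecular identifiers are stated for the reads. Named genes are those with a peak outside reps 1-4, the 15 with the most CDS and UTR peaks, the 10 with the most intron peaks, those of the 15 highest peaks, and those without a peak. Efna1 to Efnb3, the Slits, Ntn1, Ntn4, the class 3 semaphorins and the 64 other pathway genes were named to complete their group, after their values were seen. Alternatives were every region, 3' UTRs alone, a score threshold, equal list sizes, IgG overlap, merged sites, summed scores, other peak minimums and each system left out.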

Additional observations from a re-analysis of the deposited data

How the results depend on the processing

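No paired analysis was possible because peaks were called over pooled libraries, so no replicate has a value of its own. Seed matches at the peaks were not run, since no genome was used here. Of 24 alternatives of the 3 comparisons between lists, 12 could change the axon guidance count, and these called 0. In 10 others no axon guidance gene had enough peaks to be tested, and in the remaining 2 no counted peak overlapped an IgG peak. With every region, 1 of 35 axon guidance genes had an unadjusted Fisher's exact p under 0.05 in each comparison with reps 1-4. These were Unc5d (0 peaks in reps 5-7 and 308 in reps 1-4, p 0.0254) and Ephb6 (1 excitatory peak and 11, p 0.0350). Over all genes, 277 of 4132 and 134 of 4103 had such a p. At or above the median score, 1 of 19 axon guidance genes had one with reps 5-7. The number of all genes called between reps 5-7 and reps 1-4 went from 0 to 53 with every region. It was 17 with merged sites and 3 with at least 20 peaks per gene. Between the excitatory list and reps 1-4 it went from 4 to 11 with every region, 2 with 3' UTR peaks alone, with peaks at or above the median score and with merged sites, and 1 with the larger list reduced. Between the excitatory list and reps 5-7 it went from 0 to 7, 2 with 3' UTR peaks, 1 with the larger list reduced and 3 with at least 20 peaks. The axon guidance share of reps 1-4 CDS and UTR peaks was 0.696%, against 0.944% with every region, 0.853% in 3' UTRs and 0.630% by summed score. Among the highest reps 1-4 peaks, as many as the excitatory list holds, the share was 0.344%, which is only 2 of 582. With as many as reps 5-7 holds it was 0.713% (17 of 2383). The intron share of 68.9% became 59.5% at or above the median score, 76.1% of merged sites and 52.7% of summed score. It was 80.0% without semaphorins, plexins and neuropilins, 65.8% without Slits and Robos and 58.0% without the netrin system. The miR-124-3p share of 23.5% was 35.9% of sites (31.7 to 40.3), an interval that includes the 32.9% of sites over all genes. It was 30.9% of summed score and 20.4% without semaphorins, plexins and neuropilins. The miR-9-5p share of 6.49% was 9.92% of sites and 4.47% of summed score, and the let-7 share of 17.4% was 11.6% and 13.1%. Recovery of the 15 reps 5-7 peaks fell from 100% to 60% with reciprocal overlap of 50%. The causes were not tested, except that a site counts stacked names once. Of 193 alternatives, 32 could not change their value. Of the other 161, 107 stayed within the main interval or within 1.5 times the main count, 54 moved beyond it and 0 reversed. Among the 32 are all that leave out peaks overlapping an IgG peak, since 0 CDS, UTR or axon guidance peaks did so.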

Other observations

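Several axon guidance 3' UTR and CDS sites carried several names of 1 seed family, alone or beside another family. The 3' UTR site of Unc5c (chr3:141828922-141828950) had 5 miR-30 names, and a CDS site of Sema6c (chr3:95170842-95170871), a ligand, had 5 let-7 names. A CDS site of Epha4 (chr1:77380947-77380969) also had 5 let-7 names, and a CDS site of Epha5 (chr5:84331735-84331781) had 2 of miR-29 and 4 of miR-30. In the Plxna2 3' UTR, 5 miR-30 names and miR-26a-5p lay within 31 bases (chr1:194813247-194813277), and its miR-26a-5p peak, with a score of 30, was found in reps 5-7 with 3.

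CDS held most of the CDS and UTR peaks of 23 of the 61 axon guidance genes, among them Plxna2, Sema4a, Ephb6, Unc5a and Dcc. Intron peaks outnumbered CDS and UTR peaks on 17 of the 61, and on 22 of the 64 other pathway genes, where Lrrc4c, a binding partner of netrin-G, had 412 intron peaks and 20 in CDS and UTRs. No such count of genes was made over all genes.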
